A study of Mus musculus with 54 samples.

Results

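Cell cycle and proliferation genes were examined in macrophages sorted from mouse brains. The set comprised 38 standard S phase and mitosis genes that were set by symbol, with no measured value in the rule although earlier results of these data were known, and all 38 symbols were found among the 33280 gene symbols of the count tables. By role, 9 members license or fire replication origins, 6 make or maintain new DNA, 6 are cyclins or Cdk1, 6 are mitotic kinases, checkpoint proteins or survivin, 7 belong to the spindle, kinetochore and its motors, 2 to the anaphase-promoting complex, and 2 (Mki67 and Top2a) are markers of cycling chromosomes. Their levels are given per library as CPM (counts per 1000000 of the library) scaled by TMM, edgeR's trimmed mean of M values, and over the set as a summed CPM and as a module score, the mean of log2(CPM + 1) over the 38 members.

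The 54 libraries formed 18 groups of 3 and came from brains devoid of choroid plexuses of young adult mice of both sexes. Each mouse gave microglia (MG) and sdCAMs, short for subdural CNS-associated macrophages, which line the leptomeninges and the spaces around vessels. Wild-type (WT, C57BL/6JCrl) and Ccr2-/- mice were either untreated and injected with PBS, treated with vehicle (CTL) before an injection of LPS, the endotoxin lipopolysaccharide, or treated with BLZ945 before LPS. BLZ945 inhibits the CSF1 receptor and depletes these macrophages, which then repopulate. Reporter mice (Ccr2CreERT2/CreERT2:R26tdT/tdT) all received BLZ945 and 2 mg tamoxifen on 3 occasions, then PBS or LPS, and their sdCAMs were sorted into tdT+ and tdT- cells. LPS or PBS was injected 12 h before sorting, and treated mice were sorted 8 weeks after BLZ945 or its vehicle. In the reporter, tamoxifen switches on tdTomato only in cells that express Ccr2 at that time, so the tdT- cells can hold both surviving and later-arriving cells. In WT and Ccr2-/- mice the LPS groups also differed from the PBS groups by the vehicle, and these effects cannot be told apart. No WT or Ccr2-/- mouse received BLZ945 without LPS, and reporter mice carried their own batch label, so they were compared only among themselves.

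Library totals were 1705930 to 7699790 counts in the 9 WT sdCAM libraries, 2060240 to 8751293 in the 6 reporter sdCAM libraries after LPS and 7497764 to 11330781 in the other 39. The members took 187 to 4554 counts of a library, and 15 to 38 of them had at least 1 count. The cell types carried their markers. Summed over 6 border macrophage markers, MG held 0.196 to 24.3 CPM and sdCAMs 529 to 22000 CPM. Of the 5 microglial markers the sum was 5290 to 36700 CPM in MG and 239 to 8550 CPM in sdCAMs, the highest value after LPS in sdCAMs (7840 CPM) being that of tdT+ sdCAMs of mouse 5. Ccr2 itself was higher in WT without overlap only in untreated sdCAMs, with 17 to 51 CPM in WT and 2.33 to 5.2 CPM in libraries labelled Ccr2-/-. In sdCAMs after CTL and LPS it lay at 0 to 0.755 CPM in WT and 3.05 to 5.47 CPM in Ccr2-/-. These groups did not overlap either but stood in the reverse order, so the genotype is given as labelled. TMM factors were low (0.344 to 0.494) in WT sdCAMs after CTL and LPS and in tdT- sdCAMs after LPS (0.47 to 0.7), and members' levels there depend on the scaling. For the tdT- library of mouse 1 and the tdT+ library of mouse 7, both after LPS, the column names carried each other's sequencing index number, so results that use them are also given with these columns exchanged.

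Cells copy their genome once per cycle. In late mitosis and G1, Cdc6 and Cdt1 load the Mcm2 to Mcm7 helicase onto origins, and Cdc45 completes the helicase when S phase starts. Pcna then clamps the polymerases while Rrm1, Rrm2, Tyms and Tk1 supply nucleotides. Cyclins and Cdk1 bring the cell into mitosis, where Aurora and Polo kinases, kinesins and kinetochore proteins such as Cenpf divide the chromosomes and Cdc20 with Ube2c starts anaphase. S phase genes are known to be regulated by E2F factors. G2 and mitosis genes are regulated by the DREAM and MuvB complexes and through CCAAT and CHR promoter elements. Adult microglia and border macrophages renew slowly at rest and divide after depletion. Transcripts of mitotic genes peak in G2 and mitosis.

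The promoters of the set show these elements, and 6 are printed as examples. The RefSeq promoter table (GRCm38.p6, 250 bases before to 50 after each start) held 32 of the 38 members with 35 promoters. Both strands were searched for the CHR (TTTGAA), for CCAAT and for E2F octamers (TTTGGCGC, TTTCCCGC, TTTCGCGC and TTTGGCGG), none of which contains another. The CHR was found in 15 of the 35 member promoters (42.9%) and in 17.9% of all 32841 promoters, CCAAT in 28 (80.0%) and in 37.4%, an E2F octamer in 8 (22.9%) and in 2.37%, and CHR with CCAAT in 15 (42.9%) and in 6.95%. Of the 8 with an E2F octamer, 6 belonged to the 9 promoters of licensing genes. The stretches below are the 150 bases just before the annotated start, read 5′ to 3′ on the gene's strand, with capitals marking any of these elements. They lie at chr6:88898781-88898930 (minus strand) for Mcm2, chr8:75109359-75109508 (plus) for Mcm5, chr10:69352913-69353062 (minus) for Cdk1, chr7:135716380-135716529 (minus) for Mki67, chr11:99024190-99024339 (minus) for Top2a and chr1:189688087-189688236 (minus) for Cenpf. The Cdk1 stretch held all 3 kinds of element, Mcm5 an E2F octamer with CCAAT, Mki67 and Top2a the CHR with CCAAT, Mcm2 a CHR and Cenpf CCAAT alone. This holds for the printed bases only. In the whole window searched, the Mcm2 and Cenpf promoters each held both the CHR and CCAAT.
Mcm2: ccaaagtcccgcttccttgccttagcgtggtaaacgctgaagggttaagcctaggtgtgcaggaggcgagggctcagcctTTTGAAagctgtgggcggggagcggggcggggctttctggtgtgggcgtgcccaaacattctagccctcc
Mcm5: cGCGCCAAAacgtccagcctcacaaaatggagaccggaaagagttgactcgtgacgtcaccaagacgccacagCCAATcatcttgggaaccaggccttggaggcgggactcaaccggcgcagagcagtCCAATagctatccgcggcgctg
Cdk1: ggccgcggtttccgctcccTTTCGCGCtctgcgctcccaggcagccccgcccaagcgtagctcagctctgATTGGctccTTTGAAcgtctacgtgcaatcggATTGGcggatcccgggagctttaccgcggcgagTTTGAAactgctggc
Mki67: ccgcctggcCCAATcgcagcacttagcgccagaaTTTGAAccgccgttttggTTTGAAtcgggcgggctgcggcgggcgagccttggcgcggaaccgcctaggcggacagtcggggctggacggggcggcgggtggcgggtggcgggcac
Top2a: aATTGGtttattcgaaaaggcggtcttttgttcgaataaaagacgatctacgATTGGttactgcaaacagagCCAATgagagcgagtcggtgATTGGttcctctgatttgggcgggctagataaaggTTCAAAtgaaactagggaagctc
Cenpf: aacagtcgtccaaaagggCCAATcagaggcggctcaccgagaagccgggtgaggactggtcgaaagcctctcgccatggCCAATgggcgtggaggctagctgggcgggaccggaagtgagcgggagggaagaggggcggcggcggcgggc

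Most of the set's signal came from replication genes and little from mitotic genes. Averaged over the 54 libraries, the 9 licensing genes took 52.8% of the summed CPM (24.9% to 74.9% per library), the 6 DNA synthesis genes 28.9%, and the other 23 members together 18.3% (5.84% to 60.1%). Mcm3, Mcm6, Pcna, Rrm1 and Mcm4 alone took 55.6%. Per kilobase of exon, which allows genes to be compared, Mcm3 (11.2 CPM per kb) and Pcna (10.9) stood highest, followed by Mcm4 (6.66), Mcm6 (6.37) and Mcm7 (3.22). Cdk1 (1.08), Cenpf (0.627), Top2a (0.368), Mki67 (0.265) and Bub1 (0.0899) lay an order of magnitude or more below Mcm3. Mcm3, Mcm5, Mcm7, Cdt1, Pcna and Rrm1 had a count in all 54 libraries. Ccnb1, the cyclin of mitotic entry, had a count in 22 and Bub1, a spindle checkpoint kinase, in 18. A library with no count of a gene allows a level of up to 3 counts (0.23 to 3.5 CPM over the libraries), a floor that covers counting error only, because molecules were not tagged before amplification. In 12 members an exon overlaps that of another gene, 11 of them on the opposite strand (Ccna2, Ccne2, Cdc20, Cdc45, Kif20a, Mcm7, Nusap1, Plk1, Prc1, Tk1 and Ube2c), and with strand use of the counting not stated their values are uncertain to that extent. The libraries are bulk samples, in which fewer cells of a type and less RNA per cell cannot be told apart.

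**Figure D1:**
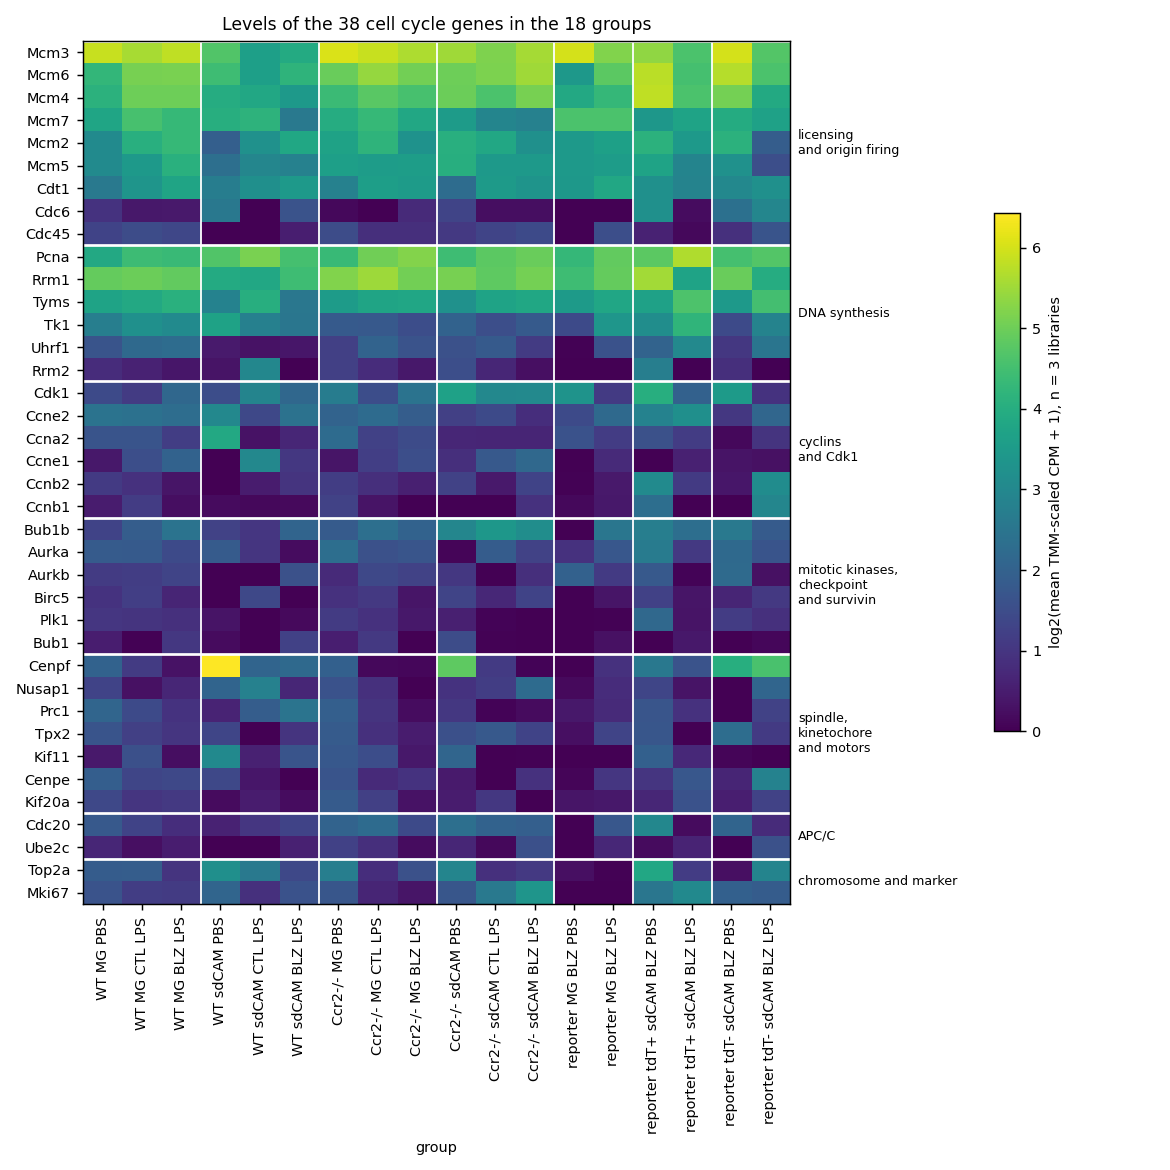
Level of each of the 38 members (rows, ordered by role) in the 18 groups (columns, 3 libraries each), as log2 of the group's mean TMM-scaled CPM + 1 on a colour scale. The rows of the Mcm genes, Cdt1, Pcna, Rrm1 and Tyms are bright in most groups, those of Cdc6, Cdc45 and the mitotic genes are mostly dark, and among the WT and Ccr2-/- groups the brightest mitotic field is Cenpf in untreated WT sdCAMs (66.54 to 118 CPM).

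The summed CPM of the 38 members stayed within 149.8 to 482.2 CPM over all libraries. In WT MG it was 244.8, 202.1 and 247.3 CPM untreated and 287.9, 278.7 and 282.2 CPM after CTL and LPS, so every LPS library stood above every untreated one. WT sdCAMs showed the opposite order, 366.4, 238.3 and 262.2 CPM untreated and 161.2, 217.9 and 197.2 CPM after CTL and LPS, without overlap. On the log2 scale these differences were 0.30 and -0.57, and 0.40 and -1.91 when libraries were scaled to their totals in place of TMM. Cenpf carried much of the sdCAM difference, since without it the other 37 members summed to 204.1 ± 40.8 CPM untreated and 188.9 ± 31.4 CPM after LPS (SD, n = 3). Ccr2-/- cells overlapped in both cell types, MG at 287.8 ± 22.9 CPM untreated and 311.4 ± 33.5 CPM after CTL and LPS, sdCAMs at 300.3 ± 26.6 and 247.6 ± 38.7 CPM. The module score did not follow the sum in MG, since in WT MG it overlapped (1.978 ± 0.307 untreated, 2.063 ± 0.095 after LPS) and in Ccr2-/- MG it was lower after LPS without overlap (2.207 ± 0.143 against 2.003 ± 0.0753).

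Among reporter libraries after PBS, tdT+ sdCAMs held 346.6, 366.8 and 482.2 CPM and tdT- sdCAMs 287.9, 328.2 and 336.4 CPM, all above reporter MG at 196.7, 228.9 and 203.3 CPM. After LPS the tdT+ sums were 250.5, 237.0 and 268.9 CPM, below every PBS library (log2 ratio -0.65). With the exchanged columns the ratio was -0.44 and 1 library (413.7 CPM) overlapped with PBS. The tdT- sums after LPS scattered from 156.0 to 413.7 CPM and overlapped those after PBS (log2 ratio -0.54, and -0.75 with the exchanged columns). BLZ945 with LPS against CTL with LPS gave overlapping sums in all 4 WT and Ccr2-/- populations. The module score overlapped in 3 of them and was lower without overlap in Ccr2-/- MG, at 1.726 ± 0.0552 after BLZ945 and 2.003 ± 0.0753 after CTL. The module score, which weighs each member alike, was 1.212 ± 0.0863 in MG of PBS-injected reporter mice, below every sdCAM library of these mice, where tdT- cells scored 1.91 ± 0.068 and tdT+ cells 2.251 ± 0.288 (SD, n = 3). In reporter MG after PBS only 21, 15 and 19 of the members had a count. These libraries detected 12333, 10815 and 12186 genes of any kind, against a median of 14058 over all 54 libraries. The part of this low detection in the results of reporter MG was not tested.

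**Figure D2:**
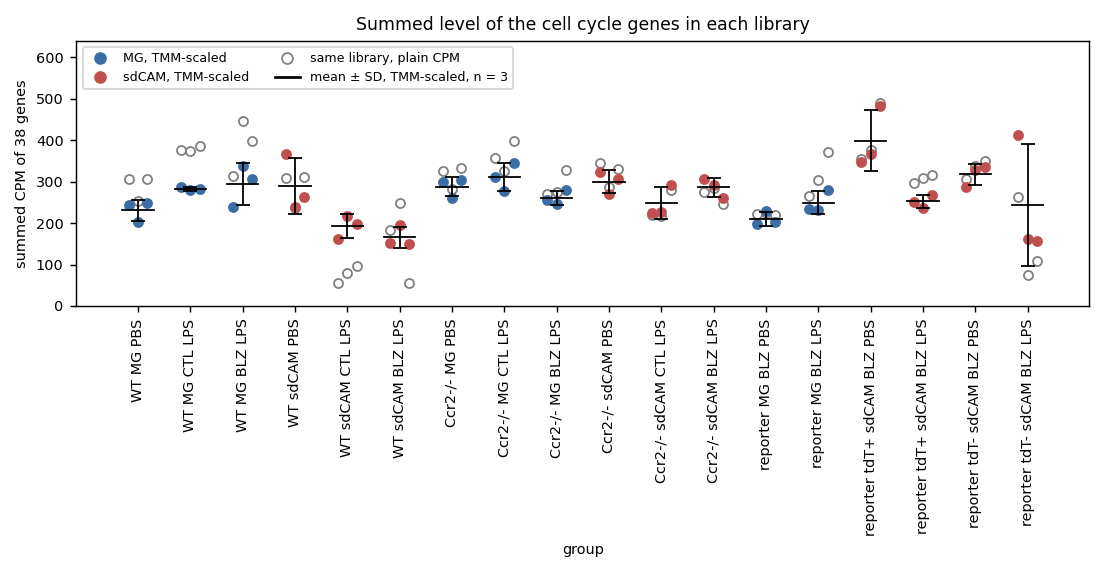
Summed CPM of the 38 members in each of the 54 libraries by group (filled points TMM-scaled, blue for MG and red for sdCAMs, with the group's mean and SD in black; hollow grey points scaled to library totals only). The tdT+ sdCAMs after PBS lie between 346.6 and 482.2 CPM, and filled and hollow points part most in WT sdCAMs after CTL and LPS.

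The first comparison asked how endotoxin moved these genes in MG. In WT MG, edgeR called 1 of the 36 members tested (adjusted p under 0.05 and log2 fold change over 1 in size), against 16.7% of all 11789 genes tested. The member was Mcm2, a helicase subunit, at 6.268, 7.53 and 8.622 CPM untreated and 14.17, 15.62 and 16.87 CPM after LPS, with no overlap. It rose by a log2 fold change of 1.06 (SE 0.284, adjusted p = 0.0142 by edgeR). The call was lost without LPS mouse 6 (0.996, adjusted p = 0.0488) and without untreated mouse 9 (0.95, adjusted p = 0.0545). Other helicase subunits also passed the adjusted threshold but not the fold limit. Mcm6 went from 21.57, 16.18 and 16.35 to 31.91, 35.11 and 33.4 CPM (log2 fold change 0.90, SE 0.201, adjusted p = 0.00563 by edgeR), Mcm4 from 19.02, 13.23 and 16.98 to 22.79, 34.84 and 35.46 CPM (0.93, SE 0.244, adjusted p = 0.0133), and Mcm7 by 0.85 (SE 0.265, adjusted p = 0.0296). These 3 separated the groups without overlap as well, whereas Mcm3 (-0.29, adjusted p = 0.26) and Mcm5 (0.46, adjusted p = 0.351) overlapped. The share of all genes whose libraries separated in this way is not given, here or below. Non-overlap of a gene therefore only describes its libraries. Summed, Mcm2 to Mcm7 went from 124.1, 118.3 and 116.9 to 150.8, 163.7 and 164.6 CPM. By role, the median log2 fold change of the licensing genes tested was 0.85 and that of the spindle and kinetochore genes -0.82, with 0.02 over all genes and 0.06 over the members tested. Of 13 marker lists of cell types, 7 also separated these groups, among them microglial markers with 22900 to 24000 CPM untreated and 5290 to 9220 CPM after LPS, and their part in these results was not tested.

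In Ccr2-/- MG the few calls were of Top2a, Cenpf and Cdk1. Of 33 members tested, edgeR called 3, all lower after LPS, against 19.4% of all 11558 genes. Top2a, the topoisomerase that untangles replicated chromosomes, fell from 5.962, 6.853 and 4.17 to 1.688, 0.43 and 0.2606 CPM (log2 fold change -2.78, SE 0.741, adjusted p = 0.00972 by edgeR), a call kept in each fit that left out 1 library. Cenpf, a kinetochore protein that accumulates in G2, fell from 3.081, 1.884 and 3.841 to 0.3069, 0 and 0 CPM (-4.61, SE 1.27, adjusted p = 0.0115), and Cdk1, the kinase of mitotic entry, from 3.975, 5.139 and 7.243 to 1.688, 1.72 and 2.258 CPM (-1.50, SE 0.555, adjusted p = 0.0494). Every untreated library stood above every LPS library for these genes. The Cenpf call was lost without untreated mouse 5f (adjusted p = 0.0517), LPS mouse V2m (0.0567) or LPS mouse V4f (0.0602). The Cdk1 call was lost whichever of the 6 libraries was left out (adjusted p 0.0563 to 0.174). It was also lost with library totals (edgeR adjusted p = 0.0588), with no low-count filter (0.0516) and with the study's low-count rule (0.0527). In WT MG the same genes gave log2 fold changes of 0.04 for Top2a (adjusted p = 0.982), -1.40 for Cenpf (0.309) and -0.56 for Cdk1 (0.522), with overlapping groups.

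Among replication genes of Ccr2-/- MG, the sliding clamp Pcna went from 18.38, 19.79 and 19.2 to 32.76, 23.39 and 39.08 CPM (log2 fold change 0.75, SE 0.248, adjusted p = 0.0302 by edgeR), without overlap and under the fold limit. Mcm6 (0.48, adjusted p = 0.0606) also separated the groups, while Mcm2 (0.52, 0.262), Mcm4 (0.43, 0.204) and Mcm7 (0.35, 0.435) overlapped. No difference between the genotypes was called, since the interaction of LPS with genotype in MG gave edgeR 0 of 38 members (1 at an unadjusted p under 0.05, 0 by DESeq2) and 0.0% of all 12423 genes. That interaction was -0.49 for Mcm2 (SE 0.458, adjusted p = 1.0) and -2.78 for Top2a (SE 1.36, adjusted p = 1.0). In Ccr2-/- MG, 6 of the 13 marker lists separated untreated from LPS libraries, with microglial markers at 35100 to 36700 and 10300 to 11900 CPM, B cell markers at 31.2 to 43.7 and 18.7 to 20.1 CPM and monocyte markers at 5.48 to 8.34 and 10.3 to 11.5 CPM among them. Their part in these results was not tested.

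In sdCAMs the member that moved with LPS in both genotypes was Cenpf. In WT sdCAMs it lay at 118, 70.23 and 66.54 CPM untreated and at 5.663, 0 and 3.993 CPM after CTL and LPS, a wide gap without overlap. It was the 1 call among 15 members tested, against 6.32% of 10504 genes, and fell by 4.41 on the log2 scale (SE 1.09, adjusted p = 0.0391 by edgeR). All 3 LPS libraries and part of the others carry a mark of immediate early gene correction in the labels, and with this mark as a covariate the value was -4.2 (adjusted p = 0.0175). The call held in 8 of 8 other settings but was lost whichever of the 6 libraries was left out (adjusted p 0.0774 to 0.125). In Ccr2-/- sdCAMs, Cenpf fell from 29.81, 31.05 and 21.61 to 1.824, 1.474 and 0.1225 CPM (log2 fold change -4.57, SE 0.767, adjusted p = 0.000673 by edgeR), and this call was kept in every setting run and in each fit that left out 1 library. Untreated Cenpf took up to 32.2% of the summed CPM of the set.

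Other mitotic members were low and scattered in sdCAMs. In WT sdCAMs, 23 members did not pass the low-count filter, and Mki67, the classical proliferation marker, read 0, 4.059 and 5.691 CPM untreated and 0.755, 1.165 and 0.6142 CPM after LPS, with overlap. Ccna2, the cyclin of S phase and G2, stood at 2.336, 35.32 and 3.502 CPM in the untreated libraries, so 1 library carried most of it. In untreated Ccr2-/- sdCAMs, Top2a varied as widely at 4.497, 0.4652 and 14.82 CPM, in which 1 library had 4 counts.

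Of 27 members tested in Ccr2-/- sdCAMs, edgeR called 2, against 21.5% of 11941 genes. The second was Aurka, the kinase that matures centrosomes, with 2, 0 and 0 counts untreated and 37, 10 and 17 counts after LPS (0.2092, 0 and 0 against 4.822, 1.053 and 2.083 CPM). No library overlapped, and the pooled ratio was 34.1-fold (exact 95% interval 9.06 to 288.0, counting error only; edgeR adjusted p = 0.0293). The call was lost with no low-count filter (adjusted p = 0.0521) and without untreated mouse 3m (0.0977), untreated mouse 5f (0.0997), LPS mouse V1m (0.12) or LPS mouse V4f (0.0592). Mki67 in the same libraries was 3.765, 0.8141 and 2.262 CPM untreated and 4.691, 5.37 and 5.145 CPM after LPS, without overlap but not called (log2 fold change 1.15, SE 0.757, adjusted p = 0.3). The median log2 fold change over the members tested was -0.22 in Ccr2-/- and 0.00 in WT sdCAMs, and over all genes -0.05 and -0.07. Markers of other cells differed between the same groups, in 2 of the 13 lists for WT and 5 for Ccr2-/- sdCAMs. Neutrophil markers summed to 0 to 94.2 CPM untreated and 359 to 3260 CPM after LPS in WT sdCAMs, and to 0.905 to 2.41 and 60.9 to 93.8 CPM in Ccr2-/- sdCAMs, with Ly6g and Retnlg at 0 throughout. In Ccr2-/- sdCAMs monocyte markers went from 2.44 to 5.2 CPM to 95.7 to 190.0 CPM, B cell markers from 26.5 to 32.6 CPM to 11.4 to 14.5 CPM, and microglial markers were lower after LPS in both genotypes (3560 to 8550 against 512 to 1270 CPM in WT, 3060 to 4600 against 907 to 1210 CPM in Ccr2-/-). Their part in these results was not tested.

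**Figure D3:**
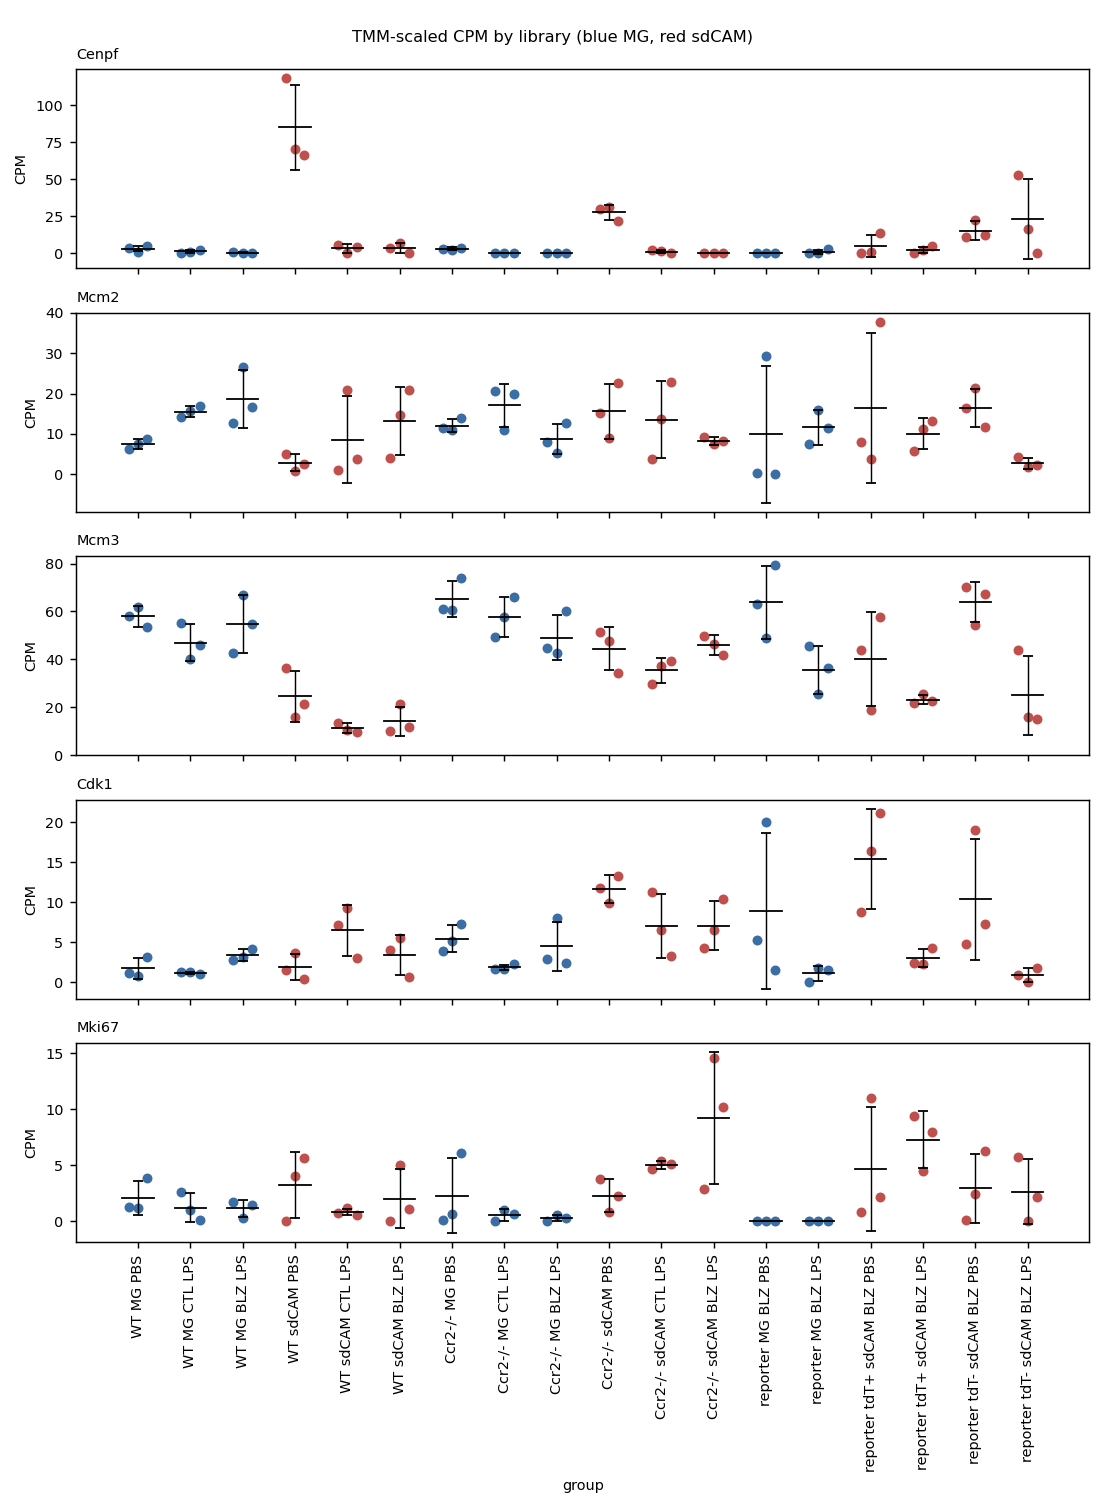
TMM-scaled CPM of Cenpf, Mcm2, Mcm3, Cdk1 and Mki67 in each library (points) of the 18 groups, with the mean and SD of 3 libraries. Cenpf reaches 66.54 to 118 CPM in untreated WT sdCAMs and 21.61 to 31.05 CPM in untreated Ccr2-/- sdCAMs and lies under 7 CPM in the sdCAM groups after LPS of both genotypes.

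In repopulated reporter mice the response to LPS was measured against PBS. In reporter MG, edgeR called 0 of 19 members (3 at an unadjusted p under 0.05, 1 by DESeq2), against 1.08% of 10882 genes. The lowest adjusted p was that of Bub1b, a spindle checkpoint protein (edgeR adjusted p = 0.099). It had 0 counts in each PBS library and 8.464, 3.424 and 2.439 CPM after LPS, a group mean 16.7-fold the mean PBS floor. Cdc20, the activator of the anaphase-promoting complex, likewise had 0 counts in each PBS library and 1.548, 3.424 and 2.064 CPM after LPS (adjusted p = 0.111). Both genes passed the low-count filter through the LPS group alone, so they could only read higher after LPS. Their groups did not overlap, but the spread in this cell type was wide, with a biological coefficient of variation of 0.81. The module score was 1.212 ± 0.0863 after PBS and 1.74 ± 0.182 after LPS (SD, n = 3), without overlap. The PBS libraries detected 10815 to 12333 genes of any kind and the LPS libraries 13493 to 14327. The part of this difference in detection was not tested. Of the 13 marker lists 5 separated these groups. Among them were erythroid (0 to 12.4 against 15.3 to 37.1 CPM) and oligodendrocyte precursor markers (0 to 0.0994 against 2.44 to 20.0 CPM). Of the 3 precursor markers, Olig2 had 0 counts in both groups and Cspg4 had 0 after PBS. The part of the 5 lists was not tested.

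In tdT+ sdCAMs, edgeR called 1 of 32 members, against 13.4% of 12708 genes. Rrm1, the large subunit of ribonucleotide reductase, fell from 38.77, 52 and 45.32 to 12.26, 15.5 and 8.633 CPM (log2 fold change -1.90, SE 0.529, adjusted p = 0.027 by edgeR), with no overlap. With the exchanged columns the value was -1.40 (adjusted p = 0.0918), with library totals -1.62 (0.0663), and without a library the call was lost in 5 of 6 cases (0.0526 to 0.108). Of the 32 members, 23 had a negative and 9 a positive fitted value, with a median of -1.19 against 0.02 over all genes, which is a description because members of low count passed the filter through the group in which they were high. Cdk1 (8.747, 16.36 and 21.18 against 2.452, 2.254 and 4.317 CPM, adjusted p = 0.176) and Mcm4 (80.67, 43.43 and 40.24 against 30.65, 17.19 and 22.82 CPM, adjusted p = 0.171) also separated PBS from LPS but were not called, and did so with the exchanged columns too (adjusted p = 0.146 and 0.199). Of the 13 marker lists 6 separated the same groups, with the columns as named. Monocyte markers lay at 230 to 286 CPM after PBS and 16.6 to 97.7 CPM after LPS, T cell markers at 6.54 to 117.0 and 0.308 to 2.54 CPM, B cell markers at 38.6 to 48.1 and 0 to 12.3 CPM and border macrophage markers at 6930 to 7660 and 529 to 3830 CPM, while microglial markers (2620 to 2690 and 471 to 7840 CPM) overlapped. Among the monocyte markers, Ccr2 alone lay at 230 to 281 CPM after PBS and 6.62 to 21.2 CPM after LPS. The part of these markers in the result was not tested.

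In tdT- sdCAMs, 2 of 32 members were called, against 26.5% of 12708 genes. Cdk1 fell from 4.805, 19.01 and 7.311 to 0.9643, 0 and 1.778 CPM (log2 fold change -3.57, SE 1.21, adjusted p = 0.0391 by edgeR), and Mcm2 from 16.34, 21.28 and 11.7 to 4.179, 1.701 and 2.223 CPM (-2.61, SE 0.933, adjusted p = 0.0497). The groups did not overlap for either gene. With the exchanged columns the values were -2.36 (adjusted p = 0.217) for Cdk1 and -1.52 (0.341) for Mcm2, so neither call held. Exchanged, the calls were Mcm3 (-1.85, adjusted p = 0.0285) and Rrm1 (-1.63, 0.0481). With the columns as named, the Mcm2 call was also lost whichever library was left out (0.0542 to 0.14) and the Cdk1 call in 4 of 6 such fits (0.0672 to 0.176). In tdT- sdCAMs 9 of the 13 marker lists separated PBS from LPS, again with the columns as named. Neutrophil markers summed to 0 CPM after PBS and 571 to 2230 CPM after LPS, with Ly6g and Retnlg at 0, erythroid markers to 0.192 to 1.67 and 35.7 to 534 CPM, neuronal markers to 7.94 to 17.4 and 62.2 to 129 CPM, microglial markers to 3690 to 3930 and 239 to 744 CPM and monocyte markers to 142 to 296 and 36.2 to 125 CPM. Among the monocyte markers, Ccr2 alone read 142 to 194 CPM after PBS and 4.45 to 56.3 CPM after LPS. The part of these markers in these results was not tested. Single libraries carried mitotic genes here. In the library named as tdT- sdCAMs of mouse 1 after LPS, which the exchange would make tdT+, Cenpf stood at 52.72 CPM and Ccnb1, Ccnb2 and Top2a at 19.61, 23.14 and 18 CPM, while the other LPS libraries had at most 16.28, 0.4446, 0.243 and 1.334 CPM.

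The 2 reporter populations were also compared with each other. After PBS, edgeR called 0 of 32 members (3 at an unadjusted p under 0.05, 0 by DESeq2) and 0.0236% of all genes. Top2a read 0.6479, 18.5 and 20.86 CPM in tdT+ and 0.4805, 0.09852 and 0 CPM in tdT- sdCAMs, the groups not overlapping (edgeR adjusted p = 0.87). T cell markers summed to 6.54 to 117.0 CPM in the same tdT+ libraries and to 0.104 to 14.3 CPM in the tdT- libraries, and their part was not tested. After LPS, edgeR called 0 of 32 members (1 at an unadjusted p under 0.05, 1 by DESeq2), against 10.6% of all genes. The interaction of LPS with tdT called 0 of 32 (4 at an unadjusted p under 0.05, 1 by DESeq2), against 5.17%. With the exchanged columns edgeR called 0 of 32 in each of these fits as well. Of the marker lists, 2 separated tdT+ from tdT- sdCAMs after PBS and 5 after LPS, and their part was not tested.

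Repopulation after BLZ945 was compared with the vehicle, both after LPS, using the same CTL and LPS libraries as the LPS comparison. No member was called in any population. With edgeR the counts were 0 of 36 in WT MG (4 at an unadjusted p under 0.05, 0 by DESeq2), 0 of 15 in WT sdCAMs (0 at that p, 0 by DESeq2), 0 of 33 in Ccr2-/- MG (4 at that p, 0 by DESeq2) and 0 of 27 in Ccr2-/- sdCAMs (2 at that p, 1 by DESeq2), against 0.0763%, 0.0%, 0.0173% and 0.0% of all genes. Cdk1 was at 1.243, 1.257 and 1.028 CPM in vehicle WT MG and at 2.804, 3.186 and 4.192 CPM in repopulated WT MG, the groups not overlapping (log2 fold change 1.53, SE 0.603, adjusted p = 0.72 by edgeR). In Ccr2-/- MG it read 1.688, 1.72 and 2.258 against 2.972, 8.073 and 2.42 CPM, again without overlap (1.24, SE 0.555, adjusted p = 0.738). Oligodendrocyte precursor markers separated the same groups, with 0 to 2.57 CPM in vehicle and 20.0 to 41.2 CPM in repopulated WT MG and with 0.767 to 2.95 and 6.99 to 26.9 CPM in Ccr2-/- MG, as did endothelial markers (16.6 to 36.3 against 5.3 to 7.88 CPM in WT). Of the 3 precursor markers, Olig2 had 0 counts in both WT MG groups. In all, 5 of the 13 marker lists separated the vehicle and repopulated groups in WT MG, 4 in Ccr2-/- MG, 1 in WT sdCAMs and 4 in Ccr2-/- sdCAMs. Their part was not tested. In Ccr2-/- sdCAMs, Cenpf had 29 counts in the vehicle libraries and 1 in the repopulated ones, a pooled ratio of 33.0-fold lower (exact 95% interval 5.47 to 1350, counting error only; adjusted p = 0.307). DESeq2 called 1 member in this comparison. Mki67 was at 4.691, 5.37 and 5.145 CPM and at 2.906, 14.57 and 10.17 CPM, with overlap. The interaction of BLZ945 with genotype called 0 of 38 members in MG (3 at an unadjusted p under 0.05, 0 by DESeq2) and 0 of 34 in sdCAMs (2 and 0), against 0.0% of all genes in both.

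Cell types were compared at rest, in untreated WT and Ccr2-/- mice and in PBS-injected reporter mice. These fits reuse the PBS libraries of the LPS comparisons. In WT, edgeR called 2 of 35 members, against 17.1% of 13136 genes. Cenpf was higher in sdCAMs (118, 70.23 and 66.54 CPM) than in MG (3.187, 1.119 and 4.94 CPM), by 4.79 on the log2 scale (SE 1.11, adjusted p = 0.00729 by edgeR), and kept its call in every setting run. Mcm3, a helicase subunit, was lower, at 36.21, 15.83 and 21.45 against 58.22, 62.07 and 53.44 CPM (log2 fold change -1.22, SE 0.375, adjusted p = 0.0332). Its groups did not overlap, but the call was lost with the mouse as a block (adjusted p = 0.0585), with library totals (0.0566), in 2 other settings and in 5 of 6 fits without 1 library (0.0659 to 0.102). In Ccr2-/- mice, 2 of 38 members were called, against 15.0% of 12890 genes. Cenpf was higher in sdCAMs by 3.22 (SE 0.874, adjusted p = 0.0111), a call lost without MG of untreated mouse 3m (2.98, adjusted p = 0.0571). Aurka was lower, with 2 counts in the sdCAM libraries and 127 in MG (2.782, 5.482 and 3.841 CPM), a pooled ratio of 55.6-fold (exact 95% interval 15.1 to 464, counting error only; adjusted p = 0.0011), and this call was kept in every setting. In each genotype 8 of the 13 marker lists separated sdCAMs from MG, and their part was not tested.

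In reporter mice after PBS, 3 of 34 members were called between tdT+ sdCAMs and MG, all higher in sdCAMs, against 8.53% of 13309 genes. MG had 0 counts of each in all 3 libraries. These members therefore passed the low-count filter through other groups and could only read higher in sdCAMs. These MG libraries detected 12333, 10815 and 12186 genes of any kind. The tdT+ libraries detected 13121, 14597 and 12900 and the tdT- libraries 13359, 14152 and 13500, and the part of this was not tested. Cdc6, the origin licensing factor, read 6.911, 0 and 18.21 CPM in tdT+ sdCAMs (edgeR adjusted p = 0.0305). Cdc20 read 2.268, 18.16 and 0 CPM (0.0317) and Mki67 0.8639, 11.05 and 2.224 CPM (0.039). Their group means were 29.3-fold, 23.8-fold and 16.5-fold the mean MG floor of 3 counts, ratios of means that do not bound single libraries. Cdc6 and Cdc20 each had a tdT+ library at 0 that overlapped with MG, and Mki67 did not. With the mouse as a block none of the calls held (adjusted p = 0.0976, 0.1 and 0.076), and with the exchanged columns, which enter only the shared estimate of spread, Cdc6 (0.077) and Mki67 (0.0526) were lost. The calls were lost in 5, 4 and 5 of 6 fits without 1 library. Between tdT- sdCAMs and MG, 1 of 34 members was called, against 6.38%. This member, Cenpf, also passed the filter through other groups and could only read higher in sdCAMs. Cenpf read 10.76, 22.66 and 12.22 CPM against 0 counts in each MG library (group mean 53.2-fold the mean MG floor, edgeR adjusted p = 0.0441), without overlap. The call did not hold with the mouse as a block (0.0675), with library totals (0.0501), with the exchanged columns (0.0729) or whichever library was left out (0.0691 to 0.106). Monocyte markers stood at 230 to 286 CPM in tdT+ and 142 to 296 CPM in tdT- sdCAMs after PBS and at 2.68 to 6.06 CPM in MG. Ccr2, whose expression the reporter marks, is among these 4 markers. It alone read 230 to 281 CPM in tdT+, 142 to 194 CPM in tdT- sdCAMs and 2.58 to 6.06 CPM in MG, with Ly6c2 at 0 in tdT+. T cell markers stood at 6.54 to 117.0 CPM in tdT+ and 0.104 to 14.3 CPM in tdT- sdCAMs and at 0 in every MG library, and 8 of the 13 marker lists separated each sdCAM population from MG. Their part in these results was not tested.

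Whether LPS acted differently on the cell types was tested as an interaction in each genotype. In WT, edgeR called 0 of 35 members (3 at an unadjusted p under 0.05, 0 by DESeq2), against 1.32% of all genes. In Ccr2-/- mice, 1 of 38 was called, against 6.88%. It was Aurka, whose LPS response was higher in sdCAMs than in MG by 5.99 on the log2 scale (SE 1.40, adjusted p = 0.0103 by edgeR), a fitted value that rests on 2 counts in untreated sdCAMs. In MG, Aurka read 2.782, 5.482 and 3.841 CPM untreated and 1.151, 2.236 and 2.606 CPM after LPS, so the groups moved in opposite orders in the cell types. The call was kept in 12 of 12 fits without 1 library but not with the mouse as a block (5.96, adjusted p = 0.0641). The interaction of LPS with genotype in sdCAMs called 0 of 34 members (4 at an unadjusted p under 0.05, 0 by DESeq2), against 0.0% of 13258 genes.

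**Figure D4:**
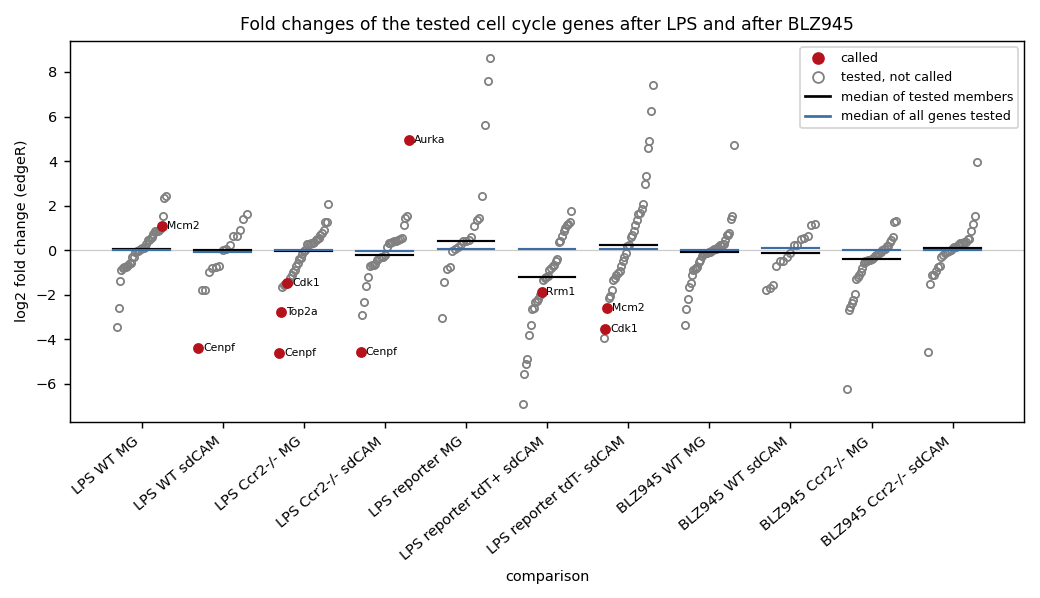
Log2 fold changes of the members tested in the 7 LPS and 4 BLZ945 comparisons (points; red where called), with the members' median in black and the median of all genes in blue. The medians of all genes lie near 0 in each comparison, and the members' median is farthest from it in tdT+ sdCAMs after LPS (-1.19).

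The index members of the set were followed within the WT and Ccr2-/- groups and within the reporter groups. Mki67 had 0 counts in all 6 reporter MG libraries, after PBS and after LPS, and among the WT and Ccr2-/- groups had its highest mean, 9.22 ± 5.89 CPM, in Ccr2-/- sdCAMs after BLZ945 and LPS (SD, n = 3). In WT MG it was low in all groups, at 1.275, 1.221 and 3.862 CPM untreated, 2.652, 0.9878 and 0.08565 CPM after CTL and LPS and 1.74, 0.3186 and 1.454 CPM after BLZ945 and LPS, which overlapped. Among the reporter groups Top2a (13.3 ± 11.0 CPM) and Cdk1 (15.4 ± 6.27 CPM) had their highest means in tdT+ sdCAMs after PBS. Among the WT and Ccr2-/- groups Ccna2 had its highest mean in untreated WT sdCAMs (13.7 ± 18.7 CPM), where its SD exceeded its mean, and Mcm5 ranged between group means of 4.13 CPM in untreated WT sdCAMs and 15.8 CPM in WT MG after BLZ945 and LPS.

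Pcna had a count in every library. Its group mean was higher after LPS in all 7 comparisons on the TMM scale, for example 18.4 ± 4.57 against 28.6 ± 4.23 CPM in reporter MG and 27.0 ± 4.29 against 49.6 ± 14.0 CPM in tdT+ sdCAMs (SD, n = 3). With the exchanged columns the Pcna mean of tdT+ sdCAMs after LPS was 42.1 ± 18.4 CPM, and that of the tdT- cells 32.7 ± 18.8 CPM. With library totals the order reversed in WT sdCAMs (26.0 against 13.9 CPM) and in tdT- sdCAMs (23.3 against 14.4 CPM). The PBS and LPS libraries did not overlap in Ccr2-/- MG, Ccr2-/- sdCAMs, reporter MG and, with the columns as named but not exchanged, tdT+ sdCAMs, and in none of the 7 was Pcna called, since the adjusted p was under 0.05 only in Ccr2-/- MG, with a change under the fold limit.

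The other genes of the cycle were read from 4 further lists of 100 genes (16 G1 cyclins, kinases and E2F factors, 20 brakes, 27 other S phase genes and 37 other G2 and mitosis genes). After LPS, edgeR called 14 of 81 tested in WT MG (8 higher, 6 lower), 2 of 57 in WT sdCAMs, 16 of 83 in Ccr2-/- MG, 17 of 75 in Ccr2-/- sdCAMs, 3 of 69 in reporter MG, 7 of 87 in tdT+ and 17 of 87 in tdT- sdCAMs. These were 17.3%, 3.51%, 19.3%, 22.7%, 4.35%, 8.05% and 19.5% of the list genes tested, set beside 16.7%, 6.32%, 19.4%, 21.5%, 1.08%, 13.4% and 26.5% of all genes. For BLZ945 edgeR called 0 list genes in each population (4 at an unadjusted p under 0.05 in WT MG, 5 in WT sdCAMs, 6 in Ccr2-/- MG and 5 in Ccr2-/- sdCAMs), and DESeq2 called 1, in Ccr2-/- sdCAMs.

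Among the brakes, Cdkn1a, which encodes the Cdk inhibitor p21, rose in all 7 LPS comparisons. It went from 16.35, 6.495 and 21.01 to 1314, 1920 and 884.8 CPM in WT sdCAMs (log2 fold change 6.69, SE 1.31, adjusted p = 0.017 by edgeR, kept in 3 of 6 fits without 1 library) and from 8.711, 12.31 and 10.78 to 73.6, 37.09 and 43.25 CPM in WT MG (2.28, SE 0.271, adjusted p = 0.000108). In Ccr2-/- cells the log2 fold change of Cdkn1a was 3.24 in MG and 4.33 in sdCAMs, and in the reporter 3.25 in MG, 2.89 in sdCAMs with tdT and 6.21 in those without. The reporter MG call was kept in 1 of 6 fits without 1 library and the tdT+ call in 2 of 6, and the tdT+ call did not hold with the exchanged columns. Gadd45b, a stress gene that restrains Cdk1, also rose in all 7, with log2 fold changes of 3.88 to 9.10, the reporter MG call being kept in 1 of 6 fits without 1 library. Ccng2, a cyclin of non-dividing cells, moved the other way. In WT MG it fell from 281.7, 324.9 and 326 to 19.48, 100.5 and 67.15 CPM (-2.31, SE 0.413, adjusted p = 0.00159 by edgeR), in Ccr2-/- MG by 2.41, in Ccr2-/- sdCAMs by 2.22 and in tdT- sdCAMs by 4.87 on the log2 scale. The tdT- calls of Cdkn1a, Gadd45b and Ccng2 and the tdT+ call of Gadd45b held with the exchanged columns.

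Single G1 genes differed between the cell types. Of 14 G1 genes tested at rest, edgeR called 1 in WT (7.14%), against 17.1% of all genes. In Ccr2-/- mice it called 7 of 14 (50.0%), 3 higher and 4 lower in sdCAMs, against 15.0%. Ccnd2, a D-type cyclin, was far higher in sdCAMs than in MG at rest, at 408.5, 366.1 and 63.92 against 0.5312, 0.7123 and 0.2694 CPM in WT (log2 fold change 9.12, SE 0.836, adjusted p = 1.49e-06 by edgeR). The Ccnd2 difference was 5.19 in Ccr2-/- mice, 9.29 for tdT+ and 7.11 for tdT- sdCAMs, and all 4 calls were kept in every setting and in each fit that left out 1 library. After LPS, Ccnd2 rose in WT MG to 18.32, 5.478 and 10.88 CPM (4.51, SE 0.539, adjusted p = 0.000111), in Ccr2-/- MG (4.08) and in tdT- sdCAMs (4.62, and 3.97 with the exchanged columns). Ccnd1, which pairs with Cdk4 and Cdk6, fell in Ccr2-/- sdCAMs from 75.3, 183.2 and 94.91 to 28.8, 13.37 and 32.71 CPM (-2.25, SE 0.454, adjusted p = 0.00252), in tdT- sdCAMs (-3.12, and -2.12 with the exchanged columns) and in tdT+ sdCAMs (-1.55, a call that did not hold with the exchanged columns). Exons of Cdkn1a, Ccnd1 and Ccnd2 overlap those of other annotated genes. Myc, a driver of growth, rose in WT MG from 88.81, 80.49 and 55.06 to 299.1, 204.4 and 256.3 CPM (1.77, SE 0.205, adjusted p = 9.03e-05), in Ccr2-/- MG (1.695), in Ccr2-/- sdCAMs (1.29) and in reporter MG (2.30, kept in 1 of 6 fits without 1 library). In tdT- sdCAMs Myc fell by 1.56, a call lost with the exchanged columns.

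**Figure D5:**
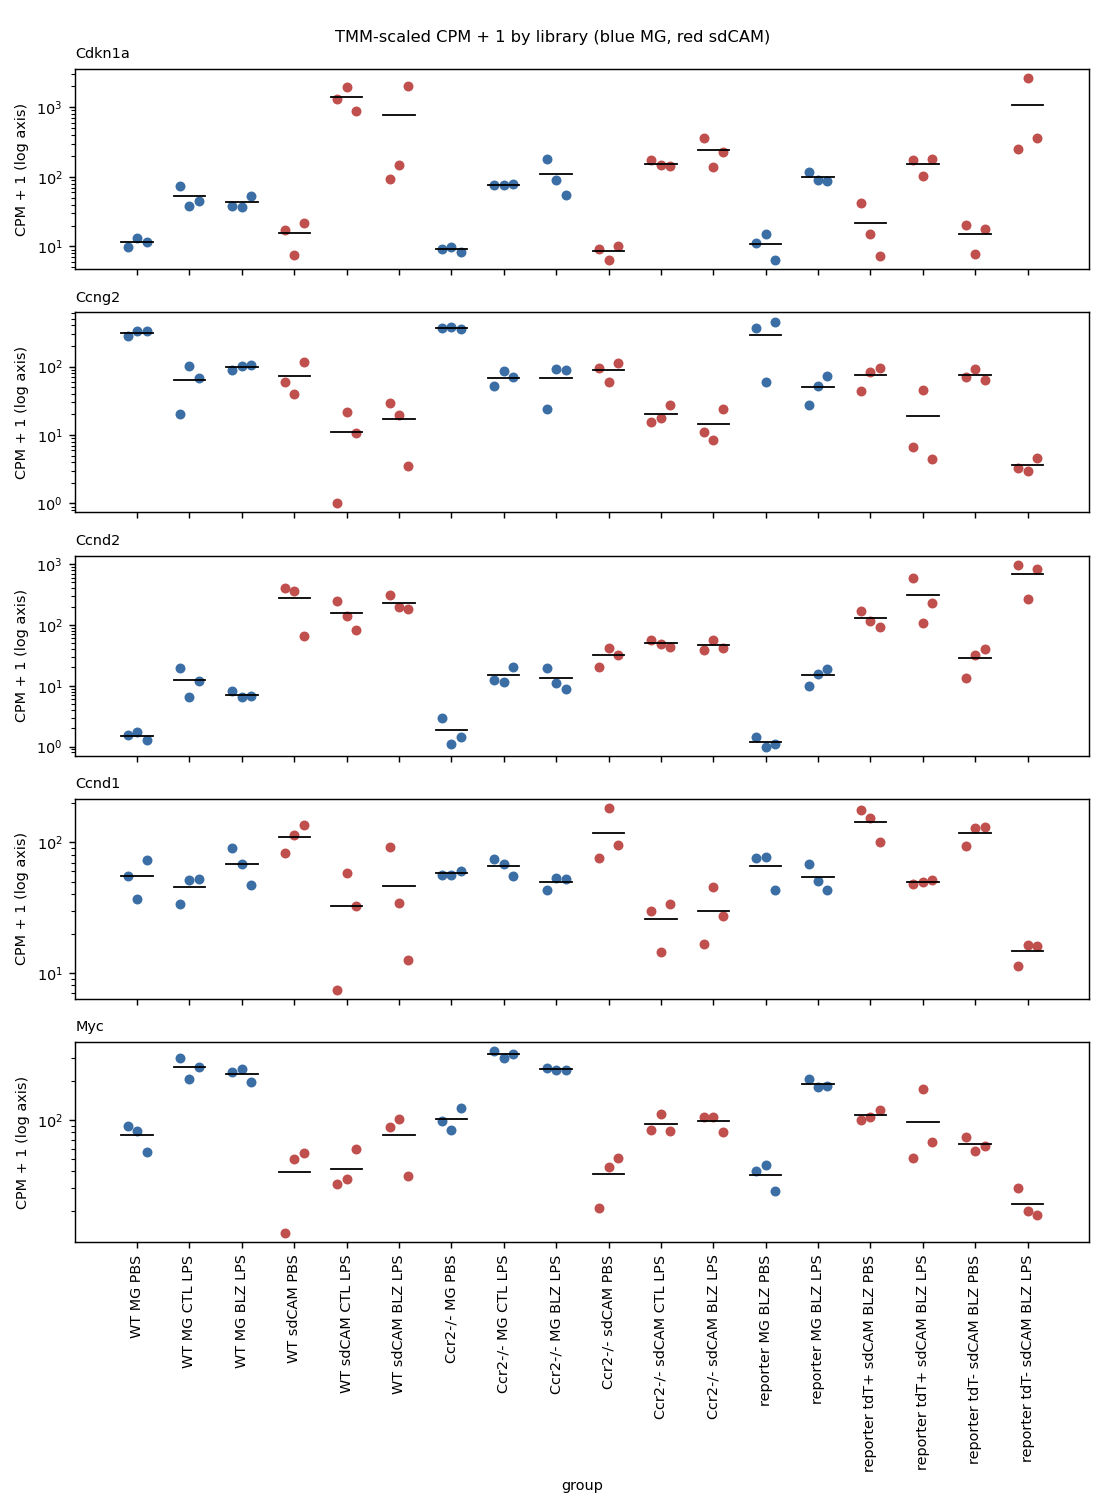
TMM-scaled CPM + 1 on a log axis of Cdkn1a, Ccng2, Ccnd2, Ccnd1 and Myc in each library (points) of the 18 groups, with the group mean as a line. Cdkn1a rises from 6.495 to 21.01 CPM in untreated WT sdCAMs to 884.8 to 1920 CPM after CTL and LPS, and Ccnd2 stays under 1 CPM in untreated WT MG.

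Among other mitotic genes, Cenpa, the centromeric histone, fell as Cenpf did in Ccr2-/- sdCAMs, from 35.04, 17.33 and 37.22 to 0.7819, 0 and 1.47 CPM (log2 fold change -5.32, SE 0.83, adjusted p = 0.000387 by edgeR), and in tdT+ (-4.37, adjusted p = 0.00702) and tdT- sdCAMs (-3.91, 0.00553), these 3 calls being kept in every setting, the exchanged columns included, and in each fit that left out 1 library. Ncaph, a condensin subunit, fell in WT MG from 34.85, 25.95 and 30.36 to 6.63, 8.8 and 8.394 CPM (-1.93, SE 0.216, adjusted p = 6.57e-05), in Ccr2-/- MG (-2.51) and in Ccr2-/- sdCAMs (-3.45, kept in 3 of 6 fits without 1 library). Kif2c, a kinesin that disassembles microtubules, was the opposite and rose in WT MG from 1.806, 0.7123 and 1.796 to 33.73, 21.91 and 29.72 CPM (4.30, SE 0.331, adjusted p = 4.43e-06), in Ccr2-/- MG (4.07) and in Ccr2-/- sdCAMs (3.45). Kif2c thus rose in the same 3 comparisons in which Ncaph fell.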

How the data were processed

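RNA was amplified from sorted cells with a low-input SMARTer kit, made into Nextera XT libraries and sequenced as single reads on an Illumina HiSeq instrument, without molecular identifiers. The authors deposited raw read counts per gene in 3 tables. Their processing notes name bcl2fastq 2.20, STAR 2.7.11a, featureCounts 2.0.8 and DESeq2 1.46.0. The genome build could not be settled from the sources used here, and strand use in counting is not given there. Groups and mouse numbers came from the labels.

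Counts were filtered with filterByExpr, scaled by TMM and tested with edgeR 4.0.16 quasi-likelihood fits in R 4.3.3, with Benjamini-Hochberg adjustment over all genes tested. The LPS and BLZ945 comparisons were fitted within each genotype and cell type and the others over the cell types or genotypes compared. Genes were called where the adjusted p was under 0.05 and the log2 fold change beyond 1 in either direction. Genes with few or 0 counts in 1 group passed the filter through groups in which they were higher. Shares of all genes are those that edgeR called by this rule. They are not a background for counts at an unadjusted p or by DESeq2. SEs were derived from the fold change and F. CPM were counts per 1000000 of the total times the TMM factor. DESeq2 1.42.0, other scalings and filters, left-out libraries, the mouse as a block and the exchanged columns were alternatives. The scripts were tested on simulated counts. Index members, the most significant called members per direction, those with the largest shares and 5 fixed G1 genes were named, with other called cycle genes (up to 3 per direction), while further genes (Bub1b, Mcm4, Mcm6 and the like) were chosen after their values were seen. The members and lists were chosen with earlier results of these data known.

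Cell types of 1 number came from the same mouse, and their deviations from the group means correlated at -0.047 to 0.21 over 36 pairs (median 0.055). Each library of a group carries its own mouse number. All 54 libraries were used.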

Additional observations from a re-analysis of the deposited data

Results flagged for a closer look

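Responses to LPS that differed between cell populations by an interaction test were looked at again, each with edgeR's adjusted p over all genes. Among the members this was Aurka in Ccr2-/- mice, whose response in sdCAMs exceeded that in MG by 5.99 on the log2 scale (SE 1.40, adjusted p = 0.0103), with 2 counts behind the untreated sdCAM level and an adjusted p of 0.0641 with the mouse as a block.

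Among the other cell cycle genes, the response of Ccnd2 was lower in sdCAMs than in MG by 5.33 in WT (log2 difference -5.33, SE 0.916, adjusted p = 0.0067) and in Ccr2-/- mice (-3.38, SE 0.745, adjusted p = 0.00673), both kept under every alternative and left-out library. It was lower in tdT+ than in tdT- sdCAMs (-3.32, SE 0.845, adjusted p = 0.0319), a call lost with the exchanged columns, with library totals and in 6 of 12 fits without 1 library. In Ccr2-/- mice Incenp (-2.87, SE 0.573, adjusted p = 0.00309), a centromeric partner of Aurora B, and Ccnd1 (-2.42, SE 0.512, adjusted p = 0.00487) had lower responses in sdCAMs and kept their calls throughout. E2f1 had a higher one (2.59, SE 0.64, adjusted p = 0.0149, kept in 9 of 12 fits without 1 library). Gadd45a (4.48, SE 1.28, adjusted p = 0.0363), Kif23 (4.52, SE 1.33, adjusted p = 0.0414) and Cenpa (-3.31, SE 0.978, adjusted p = 0.0424) lost their calls with the mouse as a block and in 9, 9 and 8 of 12 fits without 1 library. With 3 libraries per group, single libraries could not be tested as outliers.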

How the results depend on the processing

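Members' counts of calls were small, so most depended on the setting. The share of all genes called under each of these settings is not given here. The counts therefore do not compare the members with other genes. With DESeq2 the counts of called members became 1 after LPS in reporter MG, 2 in tdT+ and 4 in tdT- sdCAMs, 1 for BLZ945 in Ccr2-/- sdCAMs, 7 for tdT+ and 5 for tdT- sdCAMs against MG, 1 between tdT+ and tdT- sdCAMs after LPS and 1 for LPS by tdT. With library totals they were 2 after LPS in WT MG, 0 in tdT+, 7 in tdT- sdCAMs, 1 for sdCAMs against MG in WT, 0 for tdT- sdCAMs against MG, 4 between tdT+ and tdT- sdCAMs after LPS and 5 for LPS by cell type in WT. Without a low-count filter they were 2 after LPS in WT MG, 2 in tdT+ and 5 in tdT- sdCAMs, 1 for BLZ945 in Ccr2-/- sdCAMs, 1 for sdCAMs against MG in WT, 7 for tdT+ and 5 for tdT- sdCAMs against MG, 1 between tdT+ and tdT- sdCAMs after LPS, 2 for LPS by tdT, 2 for LPS by cell type in Ccr2-/- and 1 for BLZ945 by genotype in MG. Only the compared libraries gave 1 after LPS in Ccr2-/- sdCAMs and in tdT- sdCAMs, 1 for sdCAMs against MG in WT and 0 for tdT+ sdCAMs against MG. Size factors and the study's low-count rule gave 1 after LPS in tdT- sdCAMs, and no fold limit gave 4 in WT MG. The exchanged columns gave 0 after LPS in tdT+ sdCAMs, 1 for tdT+ and 0 for tdT- sdCAMs against MG.

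With the mouse as a replicate block, 1 member was called for sdCAMs against MG in WT, 0 for tdT+ and 0 for tdT- sdCAMs against MG and 0 for LPS by cell type in Ccr2-/-, and the block changed no other count of member calls. Leaving out 1 library gave 1 to 3 calls after LPS in WT MG, 0 in WT sdCAMs, 1 to 2 in Ccr2-/- MG and Ccr2-/- sdCAMs, 0 to 1 in reporter MG and tdT+ and 0 to 3 in tdT- sdCAMs, 1 to 2 for sdCAMs against MG in both genotypes, 0 to 2 for tdT+ and 0 to 1 for tdT- sdCAMs against MG and 0 to 1 for BLZ945 by genotype in sdCAMs.

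The log2 ratio of the summed CPM between sdCAMs and MG in WT reversed with library totals (0.30 to -0.026). Others moved with library totals, to -1.91 for LPS in WT sdCAMs, 0.48 in reporter MG, -0.39 in tdT+ and -1.35 in tdT- sdCAMs, 0.86 for BLZ945 in WT sdCAMs, and 1.25 for tdT+ against tdT- after LPS. With the exchanged columns LPS in tdT+ sdCAMs gave -0.44. Without Mcm3 the ratios were 0.46 for LPS in WT MG, 0.56 in reporter MG, 0.60 and 0.20 for sdCAMs against MG in WT and Ccr2-/-, and 1.30 and 0.81 for tdT+ and tdT- sdCAMs against MG. The difference in module score moved with library totals to -0.78 for LPS and 0.45 for BLZ945 in WT sdCAMs and to 0.48 for tdT+ against tdT- after LPS (0.41 exchanged). With pseudocounts of 0.25 and 4 it was -0.35 and -0.063 for LPS in Ccr2-/- MG, 0.93 and 0.24 in reporter MG, -0.52 and -0.13 for BLZ945 in Ccr2-/- MG, 1.58 and 0.57 for tdT+ and 1.15 and 0.35 for tdT- sdCAMs against MG, and with 0.25 -0.48 both for LPS in Ccr2-/- sdCAMs and for sdCAMs against MG in WT. The cause of these shifts was not tested. No named gene reversed, 842 values of named genes kept their call under other settings and 125 lost it, and with 1 library left out 608 kept it and 316 lost it. Depth left levels under 3 counts, 0.23 to 3.5 CPM by library, unmeasured.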
